A study of Mus musculus with 7 samples.

Results

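The miR-297, miR-466, miR-467 and miR-669 families are groups of mouse miRNAs made from repeated, closely similar hairpins. The members here were all hairpins of the study's list of detected hairpins whose names begin with mmu-mir-297, mmu-mir-466, mmu-mir-467 or mmu-mir-669. This rule used names only and gave 42 of 572 listed hairpins. Of these, 3 belonged to miR-297, 16 to miR-466, 7 to miR-467 and 16 to miR-669. Copies of a miRNA at several loci were counted together, so that the 42 members stood for 70 annotated hairpins.

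Small RNA was sequenced on the SOLiD platform from untreated HL-1 cells, an immortalised contracting line derived from mouse atrial cardiomyocytes. The cells were followed over 4 days of culture in 2 independent time courses, which gave 2 libraries each of days 1, 3 and 4, and 1 library of day 2 from time course 2. All libraries came from this 1 line and were labelled by day of culture and replicate time course only. Each library held between 4945093 and 6899411 tags (sequenced small RNAs on miRNA hairpins). The cardiac markers miR-1a, miR-133a and miR-208a took 6.50%, 2.60% and 0.244% of all tags, and miR-499 had 343 tags (0.000833%). Tags that fitted several hairpins equally well were divided equally among them, which is why tag counts can be fractions.

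A miRNA is cut from one arm of a hairpin by Drosha and Dicer and finds its targets mainly through bases 2 to 8, the seed. Most hairpins of these families lie in tandem in one intron of Sfmbt2, a Polycomb group gene that is imprinted and expressed from the paternal allele, and they are known from early embryos, placenta and embryonic stem cells. The repeats are rodent-specific and rich in alternating CA or TG, as are many unrelated places in the mouse genome. One member, miR-669a, is known to repress the myogenic factor MyoD in cardiac progenitor cells.

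The sequences below are the most frequent tags of the 10 members with the most tags and of mir-669p, the member that differed between time courses, and they show how alike and how repetitive the small RNAs were. Bases 2 to 8 are in capitals, and T stands for U as in the tags.
mir-669e: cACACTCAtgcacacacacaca
mir-467f: gGGGGTGGgtgtgtgtgta
mir-466f: tCTGTATGtgagtgtgtgcat
mir-669h: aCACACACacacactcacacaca
mir-466i: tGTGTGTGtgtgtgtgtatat
mir-466k: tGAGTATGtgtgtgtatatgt
mir-669g: tGTATCTGcaagcacacacaca
mir-297a: cAAACATGcacacaaaca
mir-669a: tATAAACGcaagcacacaca
mir-669f: tATAAACGcaagcacaaacaca
mir-669p: cACACACAcacgtataaacgca

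The leading tags of mir-669a and mir-669f shared the seed ATAAACG, and the other 9 had seeds of their own. Over all members 473 different seeds were seen, and the 5 most frequent held 40.9% of the tags. The most frequent was ACACTCA with 1109 tags, mostly from mir-669e, followed by GGGGTGG of mir-467f with 512 tags. ATAAACG had 227 tags on 2 members and 0 tags on any hairpin outside the families. It was counted 5 and 26 times (day 1), 38 (day 2), 28 and 27 (day 3) and 49 and 54 (day 4) (time course 1 before 2).

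In the annotation of the mouse genome (GENCODE, build GRCm38), 61 of the 70 hairpins were intronic in Sfmbt2, within 51.6 kb at chr2:10466663-10518279 on the plus strand. They covered 35 members in whole or in part. The other 7 members had no copy there. These were mir-466i on chromosome 13, mir-466j on chromosome 10, mir-466k and mir-669n on chromosome 3, mir-467f on chromosome 11, mir-467g on chromosome 5 and mir-467h on chromosome 9, all intergenic. An alternating run of 8 bases (TGTGTGTG or CACACACA on the hairpin strand) was present in 31 of the 42 members, or 73.8%, and in 11 of 1049 other annotated hairpins, or 1.05%. Those 11 include mir-466q and mir-467a, which carry the family names but were not in the study's list. In the tags themselves, such a run in any phase was found in 71.5% of member tags and in 0.0994% of the tags on other hairpins.

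Together, the members took few tags. In all, 2159 distinct tags with 6557 counts fitted at least 1 member, and after division 6280 counts remained with the members, 0.0152% of all tags. Of the distinct tags, 179 fitted more than 1 member, which was 8.29% of the distinct tags and 8.10% of the counts. Counted separately, 27 distinct tags with 569 counts (8.68%) fitted a hairpin that was not a member equally well. The 2 counts can overlap, and the hairpins that were not members include mir-466q and mir-467a. Single-count tags made up 64.4% of the distinct tags on members and 41.4% of those on other hairpins.

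Levels are given as RPM, the tags of a hairpin per 1000000 tags of the library. In RPM, member tags came to 130 and 149 (day 1), 171 (day 2), 138 and 143 (day 3) and 160 and 178 (day 4) (time course 1 before 2). The mean was 153 ± 17.6 (SD, n = 7). The lowest library, day 1 of time course 1, had an exact (Clopper-Pearson) 95% interval of 122 to 139 and the highest, day 4 of time course 2, one of 169 to 189, which cover counting error only. Both day 4 libraries were above both day 1 libraries, and the day 2 library lay between the day 4 values. The sum over members was not tested, because mir-669e alone made up 22.8% ± 2.91 of it and the placement rule moved its level. The share of this sum placed inside Sfmbt2 was steady at 69.7% ± 2.57 (SD, n = 7).

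The miR-669 family was the most abundant with 74.1 ± 8.90 RPM (SD, n = 7), followed by miR-466 with 44.2 ± 5.45, miR-467 with 27.8 ± 5.59 and miR-297 with 6.65 ± 1.03. This order rested on mir-669e, without which miR-669 came to 39.6 ± 8.10 RPM, below the mean of miR-466. Of all member tags, 48.5% belonged to miR-669 and 28.8% to miR-466. Single members ranged from 11.4 tags (mir-467d) to 1437 tags (mir-669e) with a median of 62.3, against a median of 194 for the 556 other hairpins with tags. The study set a threshold of 150 tags per miRNA, whereas here all tags on a hairpin were counted, with copies summed. By this wider count 11 members reached 150 tags, 6 of them of miR-669, 3 of miR-466 and 1 each of miR-467 and miR-297. Of all 598 hairpins with tags, 322 reached it. Fewer than 50 tags were found for 19 members. For comparison, the hairpins of the embryonic stem cell cluster mir-290 to mir-295, another group known from early embryos, held 362 tags in all, and the most abundant of them 116.

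The most abundant member was mir-669e (chr2:10467495-10467613, plus strand, intronic in Sfmbt2). Its level was 34.8 and 35.0 RPM (day 1), 36.8 (day 2), 30.95 and 35.3 (day 3) and 27.7 and 41.3 (day 4). The 4 libraries of time course 2 lay above the 3 of time course 1, by a small margin. Nearly all its tags, 93.9%, began at a single base, position 98. This lies in the 3′ arm, which stands here for the bases past the middle of the hairpin. From there the leading tag of 22 nt ran to the end of the annotated hairpin.

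Its tags resemble those of mir-574, a miRNA of another family whose hairpin also holds an alternating run and which had 84932 tags. The leading tag of mir-669e is shown with a second tag that fitted mir-669e and mir-574 equally well and with the leading tag of mir-574.
mir-669e, leading: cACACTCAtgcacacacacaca
shared: cACGCTCAtgcacacacacaca
mir-574, leading: cACGCTCAtgcacacacccaca

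Counted from 1 at the 5′ end of the mir-574 tag, the leading mir-669e tag carried G4A and C18A, and the shared tag carried C18A alone. The leading mir-669e tag, an exact match to its hairpin, was counted 104 and 144 times (day 1), 114 (day 2), 95 and 132 (day 3) and 77 and 168 (day 4). The shared tag was counted 115 and 38 times (day 1), 39 (day 2), 20 and 38 (day 3) and 23 and 72 (day 4). It was thus high at day 1 of time course 1, where it reached 6.14% of the mir-574 tag against 0.897% to 1.82% in the other 6 libraries. The leading tag stood at 3.40% to 6.47% of the mir-574 tag. Of the counts on mir-669e, 36.2% lay within 2 substitutions of a tag from a hairpin outside the families that was at least 50 times as frequent. For the other members together this share was 1.28%, and for the 378 other hairpins with no more tags than mir-669e it was 1.77%. The leading mir-669e tag was not part of the 36.2%. It too lay 2 substitutions from the mir-574 tag, but that tag was less than 50 times as frequent (19837 against 834 counts). How many tags of mir-669e were misread tags of mir-574 was not tested.

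Second was mir-467f (chr11:69635400-69635519, minus strand, intergenic). Its level was 19.8 and 18.3 RPM (day 1), 22.3 (day 2), 13.2 and 17.95 (day 3) and 15.2 and 29.1 (day 4). Day 4 of time course 2 was the highest library and day 3 of time course 1 the lowest. Its leading tags of 18 to 20 nt all began at the same base, which held 63.0% of its tags and lay in the 5′ arm of the hairpin. The mature sequence that RefSeq (GRCm38.p6) gives for this hairpin lies in the other arm, and 3.08% of the tags began within 3 nt of it. The paper already lists a newly found opposite strand of this hairpin, miR-467f*, whose start was not compared here.
miR-467f, annotated: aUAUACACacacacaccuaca

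The other named members were lower. mir-466f had 8.42 and 12.8 RPM (day 1), 16.9 (day 2), 12.3 and 8.11 (day 3) and 12.3 and 13.6 (day 4). Its 491 tags were spread over 314 distinct tags, none with more than 3.26% of them. mir-669h had 6.73 and 8.17 RPM (day 1), 7.59 (day 2), 9.27 and 10.9 (day 3) and 11.7 and 7.97 (day 4). The day 1 and day 4 libraries of mir-669h overlapped.

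mir-466i, on chromosome 13, was the most even with 6.95 and 6.57 RPM (day 1), 7.03 (day 2), 7.32 and 6.19 (day 3) and 6.17 and 6.57 (day 4). mir-466k, on chromosome 3, had 7.03 and 7.11 RPM (day 1), 6.63 (day 2), 7.25 and 5.41 (day 3) and 4.04 and 4.45 (day 4). Its day 4 libraries were the lowest of the 7. mir-669g had 6.001 and 5.77 RPM (day 1), 6.30 (day 2), 4.82 and 5.70 (day 3) and 4.04 and 4.06 (day 4), again with day 4 lowest.

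mir-297a, with 1 copy on chromosome 7 and 3 in Sfmbt2, had 4.85 and 3.47 RPM (day 1), 3.77 (day 2), 5.42 and 4.40 (day 3) and 5.35 and 4.48 (day 4). mir-669a, with 12 copies in Sfmbt2, had 1.93 and 4.22 RPM (day 1), 4.73 (day 2), 3.89 and 4.09 (day 3) and 5.80 and 4.71 (day 4). For mir-669a the day 1 library of time course 1 stood apart below the others.

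The tags of mir-669a and mir-669f were close to those of mir-669o (chr2:10514300-10514395, plus strand, intronic in Sfmbt2), the member next in abundance, which is described here after its values were seen. The 3 leading tags are shown together because they begin alike and came from separate hairpins of the cluster.
mir-669a: tATAAACGcaagcacacaca
mir-669f: tATAAACGcaagcacaaacaca
mir-669o: tATAAACAcaagcacacacac

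The mir-669o tag held 79.7% of its 153 tags, fitted no other hairpin as well and ran to the end of the annotated hairpin. It was counted 7 and 19 times (day 1), 21 (day 2), 5 and 20 (day 3) and 21 and 29 (day 4). The mir-669a tag was counted 1 and 14 times (day 1), 16 (day 2), 11 and 13 (day 3) and 18 and 20 (day 4), and the mir-669f tag 0 and 6 times (day 1), 15 (day 2), 4 and 5 (day 3) and 16 and 21 (day 4). For each of the 3 tags the libraries of days 1 and 3 of time course 1 were the lowest, in counts and in RPM. Relative to depth, day 4 of time course 1 was the highest for each, at 4.25 RPM for the mir-669o tag, 3.64 for the mir-669a tag and 3.24 for the mir-669f tag, and day 4 of time course 2 had 4.203, 2.90 and 3.04 RPM. A count of 0 in that day 1 library allows up to 0.439 RPM (3 tags of the library). For mir-669o as a whole, day 4 against day 1 gave a log2 fold change of 1.21 (SE 0.60, edgeR adjusted p = 0.649), and for mir-669a one of 0.86 (SE 0.47, edgeR adjusted p = 0.676). With the time course as a block, which pairs the libraries of a time course, the values were 1.31 (SE 0.47, edgeR adjusted p = 0.0682) and 0.90 (SE 0.45, edgeR adjusted p = 0.237).

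The remaining members were scarce. Beside the 11 members whose tags are shown first, 31 members held 1783 tags, 28.4% of all member tags, with a median of 42.3 tags each. Of these, 13 were of miR-466 with 19.1 to 117 tags, 10 of miR-669 with 16 to 153, 6 of miR-467 with 11.4 to 133 and 2 of miR-297 with 39.2 and 45.7. The means of these 31 members over the 7 libraries ran from 0.273 to 3.80 RPM. For 8 of them, 7 of miR-466 and 1 of miR-297, less than 50% of the tags fitted that member alone. Among the 31, mir-466l (chr2:10516097-10516217) stood out, after its values were seen, by a frequent start in the 5′ arm with tags of 21 to 23 nt.
mir-466l: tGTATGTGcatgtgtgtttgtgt

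**Figure D1:**
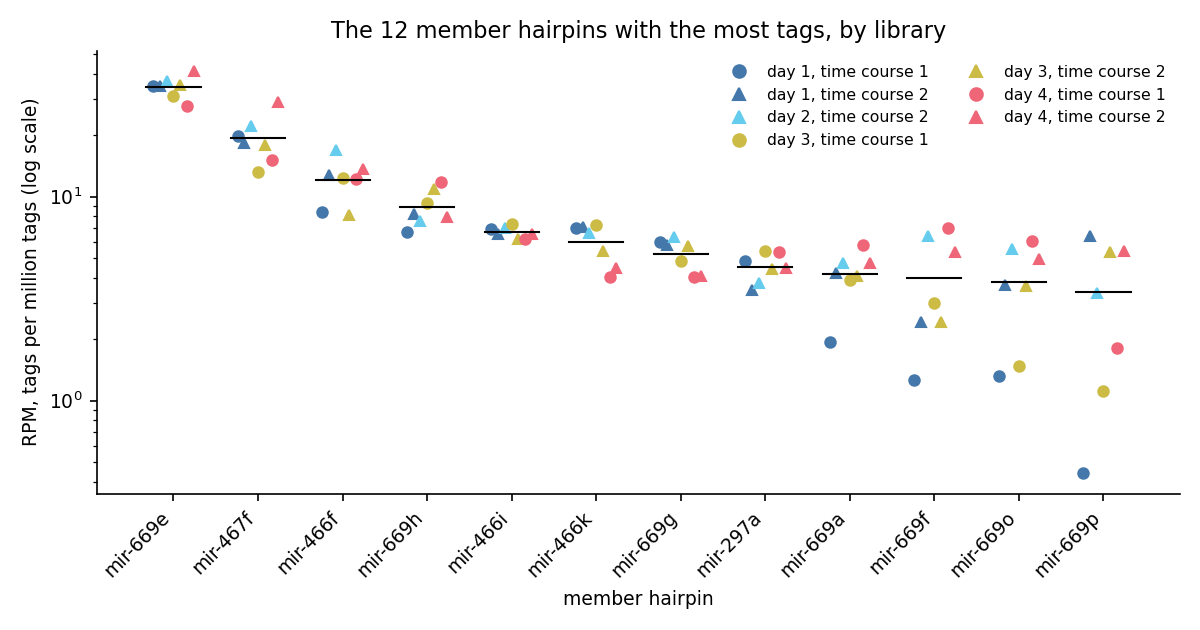
RPM (log axis) of the 12 member hairpins with the most tags in each of the 7 libraries, with colour for the day, shape for the time course and a line for the mean. mir-669e has the highest mean at 34.6 RPM, and for mir-669p the 3 libraries of time course 1 (circles) sit between 0.439 and 1.82, below all 4 of time course 2 (triangles).

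The next comparison asked whether member tags changed between day 1 and day 4 of culture. Over all hairpins, edgeR's quasi-likelihood test called 0 of 494 hairpins at an adjusted p under 0.05 (0%), and 0 of the 26 members that passed the filter on low counts. At an unadjusted p under 0.05 it gave 40 hairpins and 4 members, and DESeq2 called 0 of 42 members and 6 of 591 hairpins (1.02%). Fold changes of the 26 members ran from -0.62 to 2.41 on the log2 scale with a median of 0.44, and 23 of 26 (88.5%) were above 0, against a median of 0.02 and 51.4% above 0 over all 494 hairpins. The members above 0 came to 17 of 24 (70.8%) without day 4 of time course 2, the lowest share in any setting. Members share tags and many share a host gene, so these counts are a description and not a test. Over all 42 members, 20 were higher at day 4 in both time courses, 4 were lower in both and 18 went opposite ways.

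The lowest adjusted p among the members was that of mir-669f (chr2:10467229-10467349, plus strand, intronic in Sfmbt2). It had 8.63 and 15.2 tags (day 1), 32.6 (day 2), 16.3 and 14 (day 3) and 34.6 and 36.9 (day 4). In RPM this was 1.26 and 2.43 (day 1), 6.43 (day 2), 3.01 and 2.42 (day 3) and 6.997 and 5.34 (day 4). Both day 4 libraries and the day 2 library lay above the other 4, so the level did not follow the order of the days. With counts rounded, the exact 95% intervals of the day 1 libraries ended at 2.50 and 3.97, and those of the day 4 libraries began at 4.93 and 3.78. Day 4 against day 1 gave a log2 fold change of 1.81 (SE 0.45, edgeR adjusted p = 0.402). With the time course as a block, which pairs the libraries of a time course, it was 1.82 (SE 0.47, edgeR adjusted p = 0.00499), and 1 of 26 members was called. The SE in this blocked fit was no smaller than without the block, and why the adjusted p was lower was not tested. Of the 494 hairpins 31 (6.28%) were called in that fit, 3.04% higher and 3.24% lower at day 4.

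For the abundant members the fold changes were small against their errors. They were 0.09 (SE 0.37, edgeR adjusted p = 0.983) for mir-669e and 0.33 (SE 0.42, edgeR adjusted p = 0.884) for mir-467f. The value for mir-466k was -0.62 (SE 0.36, edgeR adjusted p = 0.700), the lowest among the members. The largest was that of mir-467c, a member of 38.4 tags named here after its value was seen, at 2.41 (SE 0.73, edgeR adjusted p = 0.415).

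Between the independent time courses, with the day in the fit, edgeR called 66 of 494 hairpins (13.4%; 7.29% higher and 6.07% lower in time course 2) and 1 of 26 members, mir-669p. Of the 26 members, 17 had a log2 fold change above 0, and the median was 0.04 against 0.02 over all hairpins. mir-669p has copies at chr2:10489116-10489202 and chr2:10496497-10496583, both intronic in Sfmbt2. In time course 1 it had 3, 6 and 9 tags (days 1, 3 and 4), and in time course 2 it had 40, 17, 31 and 37.5 tags (days 1, 2, 3 and 4). In RPM, time course 1 ranged from 0.439 to 1.82 and time course 2 from 3.35 to 6.41, without overlap. The log2 fold change was 2.47 (SE 0.44, edgeR adjusted p = 8.03e-07). Without day 1 of time course 1 it was 1.87 (SE 0.38, edgeR adjusted p = 0.120), and without day 1 of time course 2 it was 1.88 (SE 0.39, edgeR adjusted p = 0.127). In both of these fits mir-669p was no longer called, although the SE was no larger than with all libraries. Why the call was lost was not tested.

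Most tags behind this difference were copies of the single tag shown above. It was counted 1, 3 and 7 times at days 1, 3 and 4 of time course 1 and 36, 11, 26 and 34 times at days 1, 2, 3 and 4 of time course 2, and made up 82.2% of the mir-669p tags. In RPM this was 0.146 to 1.42 in time course 1 and 2.17 to 5.77 in time course 2. All other tags of mir-669p came to 2 and 4 (day 1), 6 (day 2), 3 and 5 (day 3) and 2 and 3.5 (day 4). In counts these were again lower in all 3 libraries of time course 1, by few tags. In RPM they came to 0.293 to 0.556 in time course 1 and 0.507 to 1.18 in time course 2, which overlapped.

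**Figure D2:**
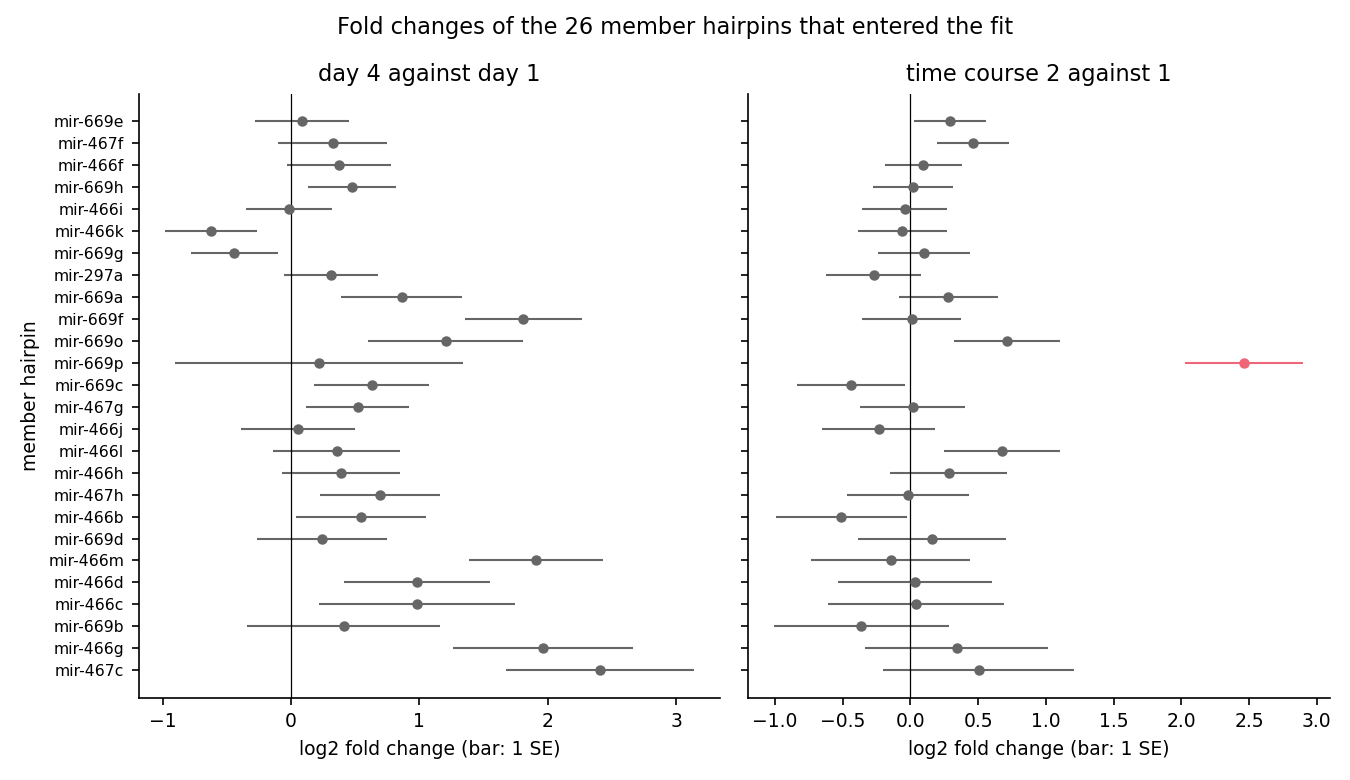
Log2 fold changes (points) with 1 SE (bars) of the 26 member hairpins that entered the edgeR fit, for day 4 against day 1 (left) and time course 2 against time course 1 (right), in order of abundance from the top. Red marks an adjusted p under 0.05, which was mir-669p in the right panel at 2.47, and 23 of the 26 points in the left panel lie above 0.

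Canonical miRNAs start at a fixed base, mostly with uridine, and are about 22 nt long, and these features of the member tags were compared with those on all other hairpins in the same libraries. There were 4 such relations, each tested over the 7 libraries by an exact two-sided sign-flip permutation test, whose smallest possible p is 0.0156, and adjusted (Benjamini-Hochberg) over the 4. Because abundant miRNAs dominate the other hairpins, the 378 hairpins with no more tags than mir-669e are given beside them as scarce hairpins.

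Member tags began with uridine in 23.7% to 31.9% of cases (28.4% ± 2.67, SD, n = 7), and tags of other hairpins in 56.0% to 58.0% (57.4% ± 0.703). The difference was -29.0 percentage points, with members lower in 7 of 7 libraries (exact permutation p = 0.0156, adjusted p = 0.0208). Against the scarce hairpins, at 36.1% ± 0.795, it was -7.70 points, again lower in 7 of 7 (exact permutation p = 0.0156, adjusted p = 0.0313). Without mir-669e the difference from all other hairpins was -21.2 points (exact permutation p = 0.0156, adjusted p = 0.0156). Members without mir-669e were not compared with the scarce hairpins, so how far the -7.70 points rest on this 1 member was not tested. The most frequent first base on members was C, at 35.2% ± 1.86 against 12.8% ± 0.346 on other hairpins. Much of this came from mir-669e, which held 22.8% of the member tags, with 93.9% of its own at 1 start and leading tags that begin with C. First bases without mir-669e were not counted.

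Tags of 20 to 24 nt made up 65.5% to 77.7% of the member tags (69.7% ± 4.47, SD, n = 7) and 88.4% to 91.0% of the others (89.5% ± 0.998). Members were lower by 19.9 points on average, in 7 of 7 libraries (exact permutation p = 0.0156, adjusted p = 0.0208). Against the scarce hairpins, at 71.4% ± 3.70, the difference was -1.72 points, lower in 5 of 7 libraries (exact permutation p = 0.125, adjusted p = 0.167), and did not pass. Without mir-669e, whose leading tag has 22 nt, the difference from all other hairpins was -26.4 points (exact permutation p = 0.0156, adjusted p = 0.0156). Members without mir-669e were not compared with the scarce hairpins. Tags under 20 nt were 27.7% ± 4.63 of the member tags and 2.67% ± 0.572 of those on all other hairpins. This share was not compared with that on the scarce hairpins.

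**Figure D3:**
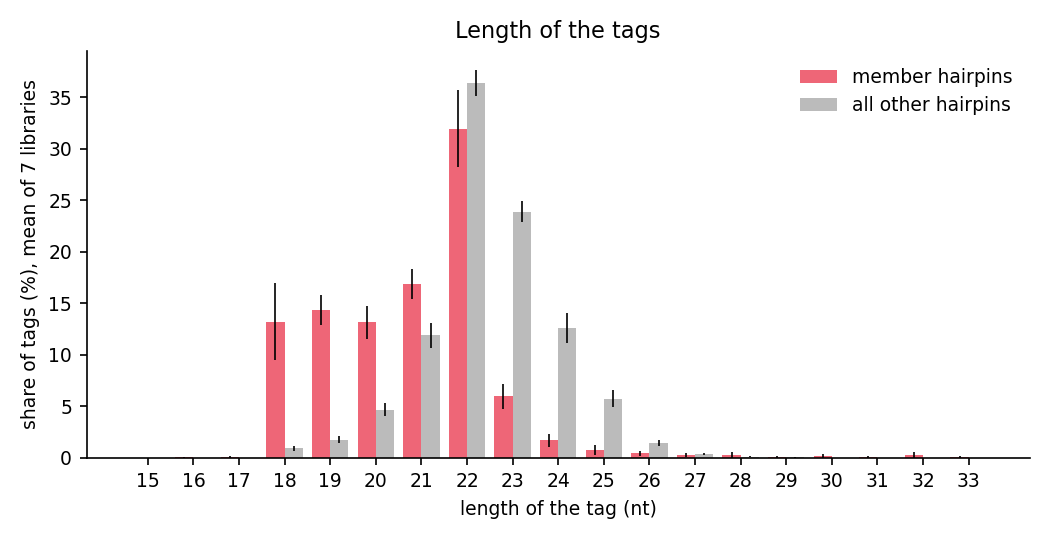
Share of tags (%) by length in nt on member hairpins (red) and on all other hairpins (grey), as the mean of the 7 libraries with the SD as bars. Both peak at 22 nt, with 31.97% of member tags and 36.4% of other tags, while 18 and 19 nt hold 13.2% and 14.3% of member tags and 0.921% and 1.75% of the others.

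Annotated starts were available from RefSeq for 7 members, those outside Sfmbt2, and for 511 other hairpins. On these 7 members 3.14% to 7.35% of the tags (5.23% ± 1.65, SD, n = 7) began within 3 nt of an annotated start, and on the other hairpins 91.0% to 92.3% (91.7% ± 0.481). Members were lower by 86.4 points in 7 of 7 libraries (exact permutation p = 0.0156, adjusted p = 0.0208). Against the scarce hairpins, at 59.3% ± 3.31, they were lower by 54.1 points (exact permutation p = 0.0156, adjusted p = 0.0313). RefSeq names 1 mature strand for each of the 7 members, so tags of the other strand count as off-start. Against the 152 other hairpins with 1 annotated start, at 23.1% ± 3.15, members were lower by 17.9 points (exact permutation p = 0.0156, adjusted p = 0.0208), and against the 129 of these that are also scarce, at 34.6% ± 1.96, by 29.3 points (exact permutation p = 0.0156, adjusted p = 0.0208). Both comparisons were added after the data were seen. By member the share was 33.3% for mir-669n, which had 27 tags, 9.81% for mir-466i, 7.52% for mir-467g, 4.12% for mir-467h, 2.94% for mir-466j and 2.83% for mir-466k. The annotated sequences of 2 abundant members are shown to compare with their leading tags above, of which neither starts with the annotated seed.
miR-466i-3p, annotated: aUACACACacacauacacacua
miR-466k, annotated: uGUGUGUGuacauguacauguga

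The difference in mismatches did not pass the test, and its direction depended on how shared tags were counted. Of the member tags 4.42% to 13.3% were placed with at least 1 mismatch (7.76% ± 2.69, SD, n = 7), and of other tags 5.05% to 9.02% (6.78% ± 1.33), members being higher in 5 of 7 libraries (difference 0.977 points, exact permutation p = 0.641, adjusted p = 0.641). The highest value, 13.3%, was that of day 1 of time course 1, where the tag shared by mir-669e and mir-574 was also high. Without mir-669e the members were lower by 1.81 points (exact permutation p = 0.0156, adjusted p = 0.0156), so that this one member set the direction. With tags that fitted 1 hairpin only, members were lower by 3.16 points, and with shared tags counted in full on each hairpin they were higher by 4.21 points, and both passed (exact permutation p = 0.0156, adjusted p = 0.0156 in each).

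**Figure D4:**
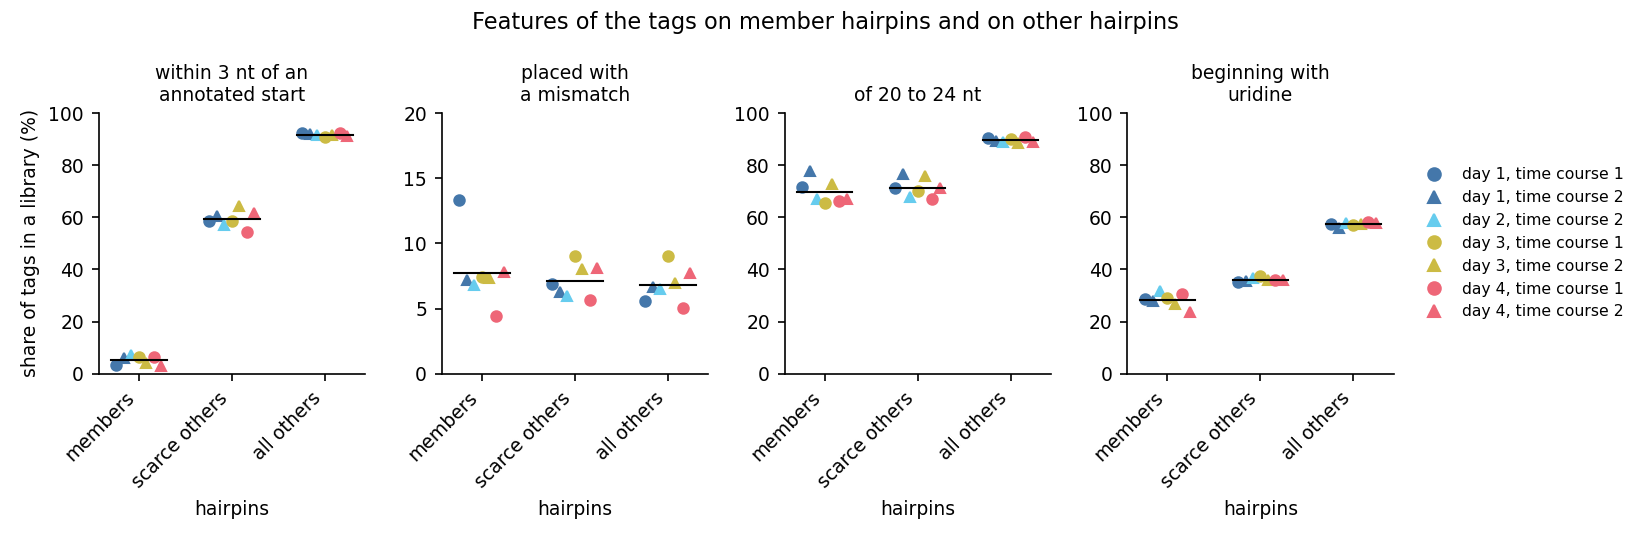
Share of tags (%, axis to 20% for mismatches and 100% otherwise) with each of 4 features on member hairpins, on scarce other hairpins (no more tags than mir-669e) and on all other hairpins, with 1 point per library and a line for the mean. Annotated starts cover only the 7 members that have one, each with 1 annotated strand, and these lie below all other hairpins (5.23% against 91.7%). For length (69.7% against 89.5%) and uridine (28.4% against 57.4%) all members together lie below the other hairpins, and for mismatches they overlap them.

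Within the families the starts differed widely from member to member. The share of a member's tags at its most frequent start ran from 7.38% to 93.9% with a median of 19.0%, and was over 50% for 7 of 42 members. In 352 other hairpins within the members' range of tags the median was 38.2%, and 121 were over 50%. The 7 members, chosen after their values were seen, were mir-669e, mir-467f, mir-466l, mir-669a, mir-669f, mir-669o and mir-669p. In 5 of these, all miR-669, over 90% of the tags came from the 3′ arm of the hairpin, and in mir-467f and mir-466l 81.2% and 89.7% came from the 5′ arm. The other 35 members had 7.38% to 29.2% of their tags at 1 start. Starts were counted as positions on the hairpin, and copies of a miRNA can differ in length. These shares are therefore approximate for members with several copies. For mir-466c the leading tag alone held 42.9% of the tags, above the 29.2% at its most frequent position. Over all members 32.4% of the tags lay in the 5′ arm.

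Because alternating repeats occur in many genes, each tag was also looked up in all annotated transcripts other than small RNAs. An exact copy on the same strand was found for 18.6% ± 2.58 of member tags (SD, n = 7) and on the opposite strand for 37.7% ± 3.23. On other hairpins these shares were 31.9% ± 1.41 and 2.11% ± 0.207, where the same strand includes the long transcripts that carry miRNAs. On the scarce hairpins they were 27.3% ± 2.50 and 11.8% ± 0.985. Without mir-669e, whose tags had an opposite-strand copy in 78.1% of cases, and mir-467f, the members had 26.4% ± 3.11 and 29.5% ± 2.66.

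The share differed by member. For mir-466i 68.4% of the tags had a same-strand copy elsewhere, for mir-669h 63.8%, for mir-466k 43.8% and for mir-466f 39.7%. The leading tag of mir-466i occurred in 38 other genes and that of mir-669h in 22. In contrast, the share was 0% for mir-669g, 1.39% for mir-669p, 1.57% for mir-669a, 1.60% for mir-669e and 4.17% for mir-669f. For the 7 members with over 50% of their tags at 1 start it lay between 1.31% and 8.92%, and for the other 35 between 0% and 68.4%. From which of these places the tags came was not tested.

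**Figure D5:**
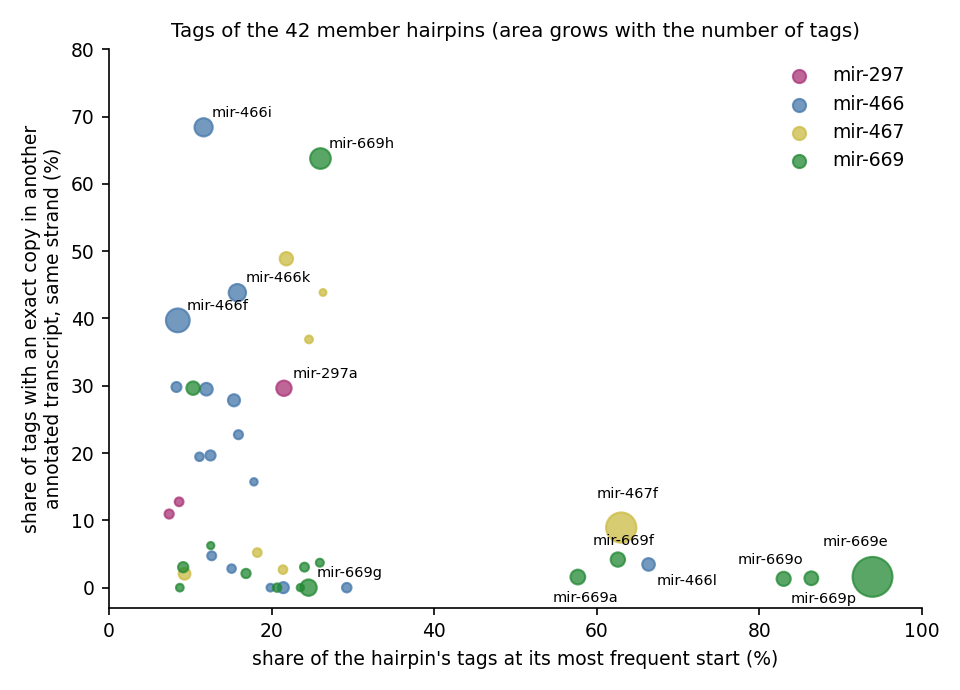
For each of the 42 member hairpins, the share of its tags at its most frequent start (x axis, %) and the share of its tags with an exact same-strand copy in another annotated transcript (y axis, %), with colour for the family and area growing with the number of tags. Starts are positions on the hairpin, so the x values are approximate for members with several copies. The 7 members to the right of 50% lie between 1.31% and 8.92% on the y axis, while mir-466i and mir-669h reach 68.4% and 63.8% on it.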

How the data were processed

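Tag lists of 7 small RNA libraries were used. The authors enriched small RNA below 70 nt, built and sequenced SOLiD libraries, mapped the tags to miRNA hairpins (miRBase) and mouse genome build mm9, and deposited for each library the distinct tags on hairpins with their raw counts, not normalized. Blank entries (101 lines, 293 tags) were dropped. The depth, 4945093 to 6899411 tags per library, gave single members few counts.

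Each tag was placed, without gaps and with at most 2 mismatches, on 1180 hairpins with a miRBase name (GENCODE vM21 and RefSeq, GRCm38), with at least 16 called bases inside the hairpin and up to 4 past its end. The hits with the fewest mismatches, then the shortest overhang, were kept, and counts were divided equally among hairpins. By this rule 92.9% of tags fitted without a mismatch, 6.76% with 1, 0.00653% with 2, and 0.342% were not placed. Copies of a miRNA were summed. Tags that differed only in uncalled last bases were summed when single tags were named.

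Groups came from the sample labels. Counts, rounded after division, were tested with edgeR 4.0.16 (quasi-likelihood, TMM, filterByExpr, R 4.3.3), fitted on all hairpins and libraries with day as a factor. The time course was added as a term for the comparison of time courses and as a block in an alternative. DESeq2 1.42.0 was an alternative. The replicate number marks an independent repeat of the time course, and same-numbered libraries deviated together (r = 0.426 to 0.444 over 494 hairpins in 3 pairs of days). With 1 cell line, p-values measure the spread between these libraries. Shares were compared over the 7 libraries by exact sign-flip permutation. Named members were the 10 with the most tags and each member called in a fit, and others were summarised by family. Members and lists were chosen with earlier results of these data known. Scripts were tested on simulated data (Python 3.11.15, numpy 2.4.6). Alternatives were unique tags, whole counts, fewer mismatches, other normalization and filters, scarce hairpins as the reference, each copy by itself, and 1 library or the most abundant member left out. Annotated mature sequences (RefSeq, GRCm38.p6) matched 7 members, and those of the members in Sfmbt2 were not used here.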

Additional observations from a re-analysis of the deposited data

Results flagged for a closer look

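The 2 time courses went opposite ways from day 1 to day 4 for 4 of the named members, and this difference was not tested, since each time course has 1 library per day. On the log2 scale of RPM, mir-669e changed by -0.33 in time course 1 and 0.24 in time course 2. For mir-467f the values were -0.38 and 0.67. For mir-669h they were 0.80 and -0.036, and for mir-669p, with 3 tags in its day 1 library of time course 1, they were 2.05 and -0.24.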

How the results depend on the processing

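The level of all members, 153 RPM in the report, was 134 with unique tags only, 186 with the whole count given to each hairpin, 118 without mir-669e and 110 with predicted hairpins that have no miRBase name added to the reference (an addition made after the data were seen). Leaving out 1 library gave 148 to 156. The difference in mismatch share, 0.977 points, was -3.16 with unique tags, 4.21 with whole counts, -1.81 without mir-669e and -1.79 without tags close to an abundant tag of another hairpin, all of which passed (exact permutation, adjusted p = 0.0156). It was -0.19 with predicted hairpins added, and leaving out 1 library gave -0.15 to 1.40, the negative value without day 1 of time course 1. The setting without tags close to an abundant tag kept the leading tag of mir-669e, which fell short of the 50-fold limit. The difference in tags of 20 to 24 nt was -1.72 points against scarce hairpins and no longer passed. Against all other hairpins it was -26.4 points without mir-669e. The differences in annotated starts and in uridine passed in every alternative run. That in annotated starts shrank to -17.9 points against hairpins with 1 annotated start (-29.3 against the scarce ones of these). That in uridine shrank to -7.70 points against scarce hairpins. Leaving out mir-669e could not alter the difference in annotated starts, as this member has none here. The most abundant member with an annotated start, mir-467f, was not left out. Without mir-669e the uridine difference from all other hairpins was -21.2 points. Members called between day 4 and day 1 numbered 0 in every alternative but the replicate block, which called 1, mir-669f (log2 1.82), a pairing that changed no other member's call. Members called between time courses numbered 0 to 1 when 1 library was left out, with mir-669p at 1.87 to 3.01. The sign for members that were not called changed in some settings. For mir-669e it was -0.10 with whole counts and -0.28 to 0.37 when 1 library was left out. For mir-466i it was 0.25 with unique tags, 0.16 without tags near abundant ones, 0.54 with predicted hairpins added and -0.16 to 0.068 when 1 library was left out. The ranges without 1 library were -0.28 to 0.74 for mir-467f and -0.87 to 3.03 for mir-669p. The causes of these changes were not tested. Copies were summed in the counts as reported, so that summing over copies added nothing, and counting each copy by itself changed no call. The filter on low counts left 26 of 42 members in the edgeR fits.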
